A study of Homo sapiens with 8 samples.

Results

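Intronic enhancers of coding genes were examined in A549, a KEAP1-mutant line derived from a human lung adenocarcinoma, through peaks of acetylated lysine 27 of histone H3 (H3K27ac). The 3 control siRNA libraries and the 3 NRF2 siRNA libraries came from A549 cells harvested 48 h after transfection, with siRNA number 28 in NRF2 siRNA replicate 1 and siRNA number 30 in replicates 2 and 3. All groups were 1 cell line, and the peak lists hold no measure of NRF2 itself, so the knockdown was not checked here. Peaks of the 6 libraries that overlapped by at least 1 bp were merged, and a merged region was kept where it was under 10 kb, had been called in at least 3 libraries with both groups present, lay inside a protein-coding gene and overlapped no exon and no transcript start of any gene. Of 49186 merged regions, 6355 met this rule, covering 18.9 Mb of hg19 (GRCh37). Because the members were chosen by the peak calls, the number of libraries that called them is a description and was not tested.

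H3K27ac is laid down by the acetyltransferases p300 and CBP and marks active enhancers and promoters. An enhancer inside an intron can act on its host gene or on another gene, so a host gene names only a position here. NRF2, which KEAP1 normally directs to degradation, binds DNA with a small MAF protein at the antioxidant response element (ARE) and drives genes of glutathione synthesis, detoxification and drug efflux. AP-1, the dimer of JUN and FOS family proteins, recognises a related but shorter sequence, TGACTCA or TGAGTCA. It was searched here as TGANTCA, a pattern that reads the same on both strands. This looser pattern also admits TGAATCA and TGATTCA, so the AP-1 matches counted here include those forms. The ARE core searched here was TGACNNNGC, and both motifs coincide in TGACTCAGC.

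The sequences at the regions that fell most with NRF2 siRNA are shown first, because all 10 of them held the coinciding form. Each line gives 41 bases of the hg19 reference, 5′ to 3′, on the strand that reads TGACTCAGC, and the capitals mark these letters.
SLC7A14 (chr3:170224505-170224545, minus strand): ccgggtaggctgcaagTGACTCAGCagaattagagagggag
APPBP2 (chr17:58547249-58547289, minus strand): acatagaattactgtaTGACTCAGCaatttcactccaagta
YWHAG (chr7:75970123-75970163, plus strand): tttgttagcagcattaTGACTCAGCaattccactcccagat
PATJ (chr1:62212595-62212635, plus strand): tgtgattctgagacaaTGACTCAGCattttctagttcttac
ABCG2 (chr4:89099608-89099648, plus strand): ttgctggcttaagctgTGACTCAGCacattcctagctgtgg
ATP7A/PGK1 (chrX:77192913-77192953, plus strand): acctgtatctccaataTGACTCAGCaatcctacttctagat
DCUN1D4 (chr4:52719440-52719480, minus strand): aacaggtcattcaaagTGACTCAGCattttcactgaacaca
SYNDIG1 (chr20:24615647-24615687, plus strand): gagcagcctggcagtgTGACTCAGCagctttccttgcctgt
AMPD3 (chr11:10512293-10512333, minus strand): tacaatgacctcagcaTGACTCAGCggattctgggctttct
P3H2 (chr3:189749587-189749627, plus strand): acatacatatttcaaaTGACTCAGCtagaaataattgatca
The windows differed from each other outside the capitals. The closest pairs in the 16 bases after the capitals were APPBP2 with YWHAG and YWHAG with ATP7A/PGK1, each with 12 of 16 bases in common. APPBP2 shared 10 of 16 with DCUN1D4 and 9 of 16 with ATP7A/PGK1. No annotation of repeats was used, so whether some windows are copies of the same repeat was not checked. For contrast, 5 of the 10 regions that rose most are shown at the AP-1 match nearest their centre, on the strand of the host gene, with capitals on TGANTCA.
PLCXD2 (chr3:111414604-111414644, plus strand): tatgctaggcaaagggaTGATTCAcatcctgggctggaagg
EPG5 (chr18:43382893-43382933, minus strand): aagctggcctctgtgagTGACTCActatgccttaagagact
ABHD6 (chr3:58258080-58258120, plus strand): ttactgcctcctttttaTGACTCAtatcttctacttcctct
LMNTD1 (chr12:25611127-25611167, minus strand): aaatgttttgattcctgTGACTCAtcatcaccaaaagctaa
ZNF385B (chr2:180325405-180325445, minus strand): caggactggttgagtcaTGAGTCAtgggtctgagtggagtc
None of these 5 AP-1 matches was followed by GC on either strand. The 5 shown were a selection and not the 5 largest rises. Among rises not shown, the nearest match read TGAATCA in FRAS1, SORCS2 and SLC35F3, and TGACTCA in the region of CMSS1 and FILIP1L. Only 2 of the 10 rising regions held TGACTCAGC anywhere, SORCS2 and ZNF385B, the latter at another match than the one shown. The windows of the falls were picked for TGACTCAGC and those of the rises by position, so the printed windows are not a like comparison. The share of all regions that hold each motif is given with the motif counts.

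Replicate 1 differed from the others in both groups. Peak lists held 27941, 34747 and 41571 peaks in control siRNA replicates 1, 2 and 3, and 23885, 34986 and 39108 peaks in NRF2 siRNA replicates 1, 2 and 3. The study's reporting summary lists fewer mapped reads for both replicate 1 libraries than for replicates 2 and 3 of either group. The peak names of both replicate 1 libraries lacked the flow cell identifier carried by replicates 2 and 3. Because siRNA 28 was used only in replicate 1, siRNA, replicate and sequencing depth cannot be told apart. The epithelial genes KRT8, KRT18 and CDH1 and the lung and endoderm factors FOXA1 and FOXA2 had a called peak at a transcript start in 6 of 6 libraries, and GATA6 in 5. KRT19 had a call at its start in 0 libraries. The 10 blood, endothelial and neural markers examined, among them PTPRC, PECAM1 and RBFOX3, had calls in 0 of 6 libraries.

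The intronic enhancers ranked below promoters in every library and were about as long as other regions. Their length ran from 314 to 9999 bp with a median of 2426 bp, against 2111 bp for the coding promoters and 2427 bp for all regions tested. The median distance to the nearest coding start was 15657 bp, with quartiles of 6076 and 37568 bp. Control siRNA replicates 1, 2 and 3 called 3901 (61.4%), 5569 (87.6%) and 6143 (96.7%) of them. NRF2 siRNA replicates 1, 2 and 3 called 3092 (48.7%), 5661 (89.1%) and 6251 (98.4%). The number called therefore followed the replicate, with both replicate 1 libraries lowest, more than it followed the siRNA group. A region that was not called had no peak past the caller's threshold, which does not mean that it had no H3K27ac.

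All 6 libraries called 2411 of the 6355 intronic enhancers (37.9%), against 40.9% of 5994 intergenic regions and 68% of 10033 coding promoters kept by the same size and call rule. A further 1410 members were called in 5 libraries, 1499 in 4 and 1035 in 3. The strength of a called region was read as the percentile of its fold enrichment over background among all peaks of the same list, from 0 for the weakest to 100 for the strongest. The median percentile of called members was 42.0, 40.3 and 46.9 in control siRNA replicates 1 to 3, and 41.6, 43.8 and 47.9 in NRF2 siRNA replicates 1 to 3. The ranges of both groups overlapped, and the mean of the NRF2 siRNA medians minus that of the control medians was 1.39 percentile points, or -0.50 with lists trimmed to equal length. Intergenic regions lay slightly higher in every library, between 44.5 and 50.6, and promoters higher again, between 57.1 and 72.5. These shares and medians are side by side as descriptions, since regions are not replicates.

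**Figure D1:**
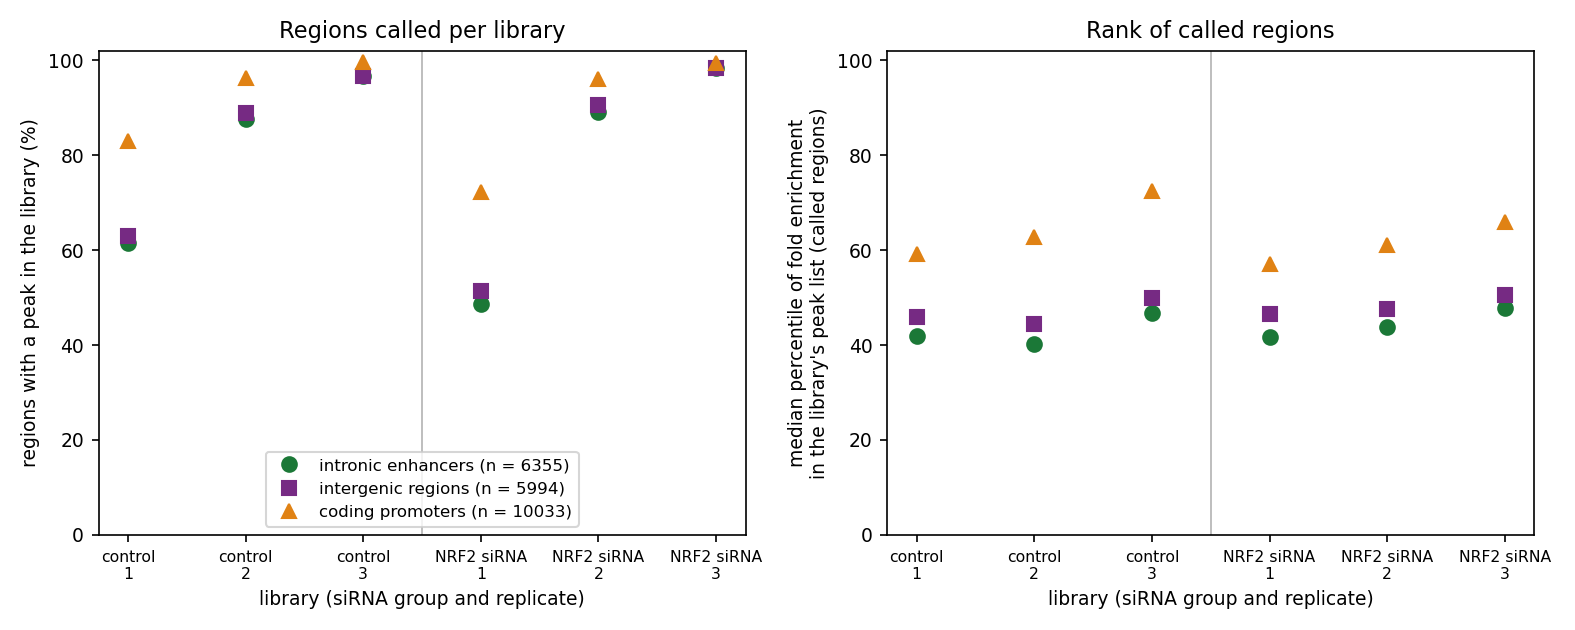
Left, the share of intronic enhancers, intergenic regions and coding promoters (%) with a peak in each of the 6 libraries; right, the median percentile of fold enrichment of the called regions in each library's list. Points are single libraries. Intronic enhancers were called least often in NRF2 siRNA replicate 1 (48.7%), and their median percentile was between 40.3 and 47.9, under that of promoters in every library.

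Length and strength went together among the members. The shortest 25% had a median length of 1302 bp and a median percentile of 25, and 8.68% of these were called in all 6 libraries. The longest 25% had a median length of 5146 bp, a median percentile of 65.3, and 75.5% called in all 6 libraries. Position in the gene made less difference. Intron 1 of the canonical transcript held 1830 members (28.8%), intron 2 held 1043, later introns 2473, and 1009 lay in gene bodies outside the canonical transcript. Their median percentiles were between 37 and 40.4. At the size limit, the longest members lay in MARK2 and ABTB2, at 9999 bp each with mean percentiles of 66.5 and 65.7. The shortest otherwise fitting regions left out lay in AKAP6 (10015 bp, mean percentile 69.6) and BMPR1B (10034 bp, 78.3).

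The 5 strongest members were chosen by their mean percentile over all 6 libraries, so high values in both groups follow from the choice. The region in CLDN16, which encodes a tight junction claudin, was at percentiles between 99.3 and 99.6 in the control siRNA libraries and at 99.9 or more in the NRF2 siRNA libraries. The region in TMEM219, which encodes a cell-surface receptor for an IGF-binding protein, was at 99.7 or more in all 6 libraries. Regions in TANGO6 and AP1S3, a subunit of the clathrin adaptor complex and unrelated to the transcription factor AP-1, were between 99.3 and 99.9. The region in DCC, the netrin receptor, was between 97.9 and 99.9. None of these 5 passed the test described next, with Benjamini-Hochberg adjusted p in limma between 0.0932 and 0.97.

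To compare the siRNA groups, fold enrichments were ranked within each library over the 32673 regions called in at least 3 libraries, with regions not called tied at the lowest rank. The ranks were turned into normal scores, in units of SD, and tested with limma over all regions with Benjamini-Hochberg adjustment. At an adjusted p under 0.05, 178 intronic enhancers scored lower and 178 scored higher with NRF2 siRNA, 2.8% each. Over all regions tested, 3.39% were lower and 2.01% higher. Over all 29187 regions under the same size and call rule, wherever they lay, 2.2% were lower and 1.79% higher. All 356 members moved the same way in all 3 replicate pairs, which follows largely from their selection by a test on the same scores. Since the rule required a call in both groups, it had set aside 460 otherwise fitting regions called in 3 control and 0 NRF2 siRNA libraries, of which limma called 167 lower, and 136 with the opposite pattern, of which 43 were called higher. The balance of 178 and 178 therefore belongs to regions called in both groups.

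The counts depended on how the libraries were used. With the replicate number as a block, 320 members were lower (5.04%) and 479 higher (7.54%), including all 178 of each direction, against 6.62% and 5.72% of all regions tested. With lists trimmed to equal length, 3394 regions met the rule, of which 145 were lower and 247 higher, and these shared 87 and 81 regions with the 178 of each direction. Counts over all regions are not given for the trimmed lists. Without control siRNA replicate 2, 0 members passed in either direction, while 1331 had an unadjusted p under 0.05. Without control siRNA replicate 3 the counts were 26 lower and 0 higher, and without NRF2 siRNA replicate 2 they were 29 and 0. The median score change over all members was 0.13 SD upward, against 0.12 for intergenic regions, -0.06 for promoters and 0.02 over all regions tested. Regions that neither replicate 1 library called all score 0.25 SD upward in pair 1, because a shorter list ties more regions at the lowest rank. These medians therefore depend in part on how uncalled regions are scored. Among regions called in all 6 libraries they were 0.16 for members, 0.12 for intergenic regions, -0.03 for promoters and 0.03 over all regions tested. ChIP of bulk cells cannot tell fewer cells with the mark from less mark in each cell.

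The following levels describe both sets and follow in part from the split by direction. In control siRNA replicates 1, 2 and 3 the 178 lower members had median percentiles of 73.2, 78.5 and 79.1 and were called in all 3 libraries. In NRF2 siRNA replicates 1, 2 and 3, 50, 134 and 175 of them were called, at medians of 25.2, 26.9 and 30.3 where called. The 178 higher members showed medians of 24.3, 25.9 and 32.7 where called in the control libraries and of 47.7, 70.9 and 66.3 in the NRF2 siRNA libraries. Changes ran from -2.79 to -0.83 SD among the lower members and from 0.79 to 1.98 SD among the higher members. Of the lower members, 49 were called in all 6 libraries, and of the higher members 69.

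**Figure D2:**
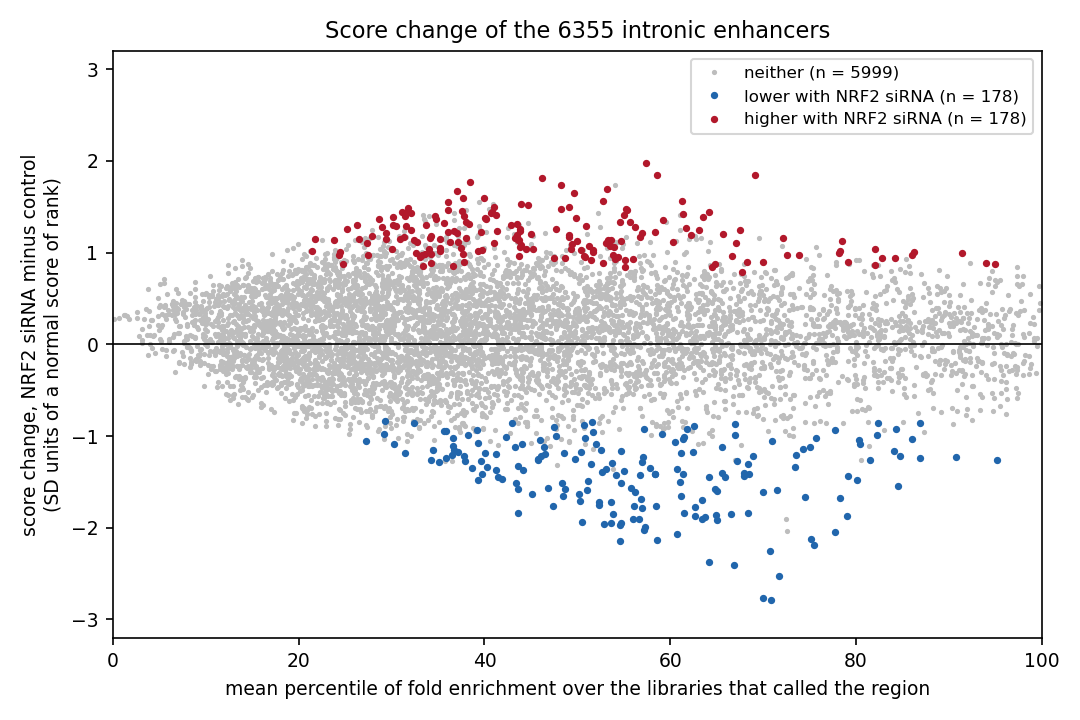
Score change of each of the 6355 intronic enhancers (NRF2 siRNA minus control, in SD of a normal score of rank) against its mean percentile of fold enrichment over the libraries that called it. Blue points are the 178 members called lower by limma, red points the 178 called higher and grey points the other 5999; the falls reach -2.79 and the rises 1.98.

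The region with the largest fall lay in intron 2 of SLC7A14 (chr3:170223694-170225452), a gene of the cationic amino acid transporter family. It was at percentiles 89.0, 93.8 and 95.0 in control siRNA replicates 1, 2 and 3, was called at 5.42 in NRF2 siRNA replicate 2, and was not called in NRF2 siRNA replicates 1 and 3. The groups did not overlap, and the score changed by -2.79 ± 0.30 (SE, n = 3 libraries per group, limma adjusted p = 0.00628). A region in intron 4 of APPBP2 (chr17:58546053-58548237), a substrate receptor of cullin ubiquitin ligases, was at 88.8, 91.3 and 95.7 with control siRNA and was called with NRF2 siRNA only in replicate 3, at 4.19. Its score changed by -2.77 ± 0.26 (adjusted p = 0.00628). A region in the intron of YWHAG (chr7:75969269-75970797), which encodes the 14-3-3 gamma adaptor, was at 89.6, 89.9 and 91.9 with control siRNA and was called with NRF2 siRNA only in replicate 3, at 15.7. Its groups were also separate, with a change of -2.53 ± 0.24 (adjusted p = 0.00628).

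The next regions in order of size include those in PATJ, ABCG2 and ATP7A. PATJ, a scaffold of the Crumbs polarity complex at tight junctions, held a region in intron 1 (chr1:62210664-62213635) at 95.7, 93.5 and 95.2 with control siRNA. NRF2 siRNA replicates 2 and 3 called it at 23.3 and 26.7 and replicate 1 did not. ABCG2, a drug efflux pump, held a region in its gene body outside the canonical transcript (chr4:89098737-89100758) at 86.4, 94.1 and 97.0 with control siRNA. With NRF2 siRNA that region was not called in replicate 1 and was at 19.5 and 23.8 in replicates 2 and 3, so its groups did not overlap. A region (chrX:77191174-77194899) inside both ATP7A, a copper-transporting ATPase, and an annotated transcript of PGK1, a glycolytic kinase, went from 91.1, 96.9 and 95.6 to not called, 35.3 and 34.6. Scores at these 3 regions changed by -2.41 ± 0.20, -2.37 ± 0.22 and -2.25 ± 0.22, each with a limma adjusted p of 0.00628.

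The remaining 4 of the 10 largest falls had control percentiles between 79.4 and 94.6. The region in intron 1 of DCUN1D4 (chr4:52718755-52720322), which helps attach NEDD8 to cullins, and that in intron 1 of P3H2 (chr3:189749303-189750987), a collagen prolyl hydroxylase, were called with NRF2 siRNA only in replicate 3, at 39.6 and 39.7. AMPD3 (chr11:10510129-10514205), an AMP deaminase of purine metabolism, was at 84.1, 91.7 and 87.3 with control siRNA and at 5.95 and 23.9 in NRF2 siRNA replicates 2 and 3. SYNDIG1 (chr20:24614138-24617197), a synaptic membrane protein, was the only 1 of the 10 called in all 6 libraries, at 93.9, 94.6 and 92.4 with control siRNA and 3.76, 6.73 and 35.9 with NRF2 siRNA. In none of the 4 did the groups overlap. The falls were chosen for size and for moving the same way in all pairs, so this separation follows largely from the choice. Over all regions tested, the percentiles of the groups were separate with NRF2 siRNA lower in 12.8% and with it higher in 7.39%. The changes at these 4 regions were between -2.18 and -2.13 SD, with adjusted p between 0.00628 and 0.00953. All 10 falls remained past the threshold with the replicate block and with replicates 2 and 3 only, and all 10 missed it without control siRNA replicate 2, at adjusted p between 0.0504 and 0.0547 and with changes between -2.81 and -2.03 SD.

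Of the 10 largest rises, 9 started from low or uncalled positions, and EPG5 was the exception. PLCXD2, of the phospholipase C family, held a region in intron 1 (chr3:111413542-111415711) that was called with control siRNA only in replicate 2, at 16.4, and was at 74.6, 79.1 and 59.6 in the NRF2 siRNA libraries. Its score rose by 1.98 ± 0.37 (SE, n = 3 per group, limma adjusted p = 0.0222). EPG5, an autophagy tether, held a region outside the canonical transcript (chr18:43381150-43384502) called in all 6 libraries, at 36.8, 56.1 and 39.1 with control siRNA and 89.8, 97.8 and 95.4 with NRF2 siRNA. This rise was 1.85 ± 0.26 (adjusted p = 0.0101), and its groups did not overlap. FRAS1, a basement membrane protein, held a region near its 3′ end, in intron 70 of 73 (chr4:79450098-79451842), that was called with control siRNA only in replicate 2, at 27.3, and was at 62.1, 80.1 and 64.7 with NRF2 siRNA.

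The region of CMSS1 and FILIP1L (chr3:99619328-99621804), which both genes share, was called in every library, at 4.79, 9.40 and 1.71 with control siRNA and at 68.2, 69.9 and 68.5 with NRF2 siRNA. ZNF385B, a zinc finger gene, held a region (chr2:180324225-180326338) at 6.08, 33.0 and 30.2 with control siRNA and 72.2, 92.1 and 85.8 with NRF2 siRNA. Scores at these 2 regions rose by 1.67 ± 0.32 and 1.69 ± 0.23 (limma adjusted p = 0.0229 and 0.00953). ABHD6, a monoacylglycerol lipase, held a region called with control siRNA only in replicate 2, at 4.73, and at 56.8, 59.6 and 63.8 with NRF2 siRNA. The other rises lay in LMNTD1, SORCS2, a sortilin family receptor, SLC35F3, a solute carrier, and TSNARE1, a SNARE-domain gene. Each of these 4 was uncalled in control siRNA replicate 1, had control percentiles of at most 23.2 and NRF2 siRNA percentiles between 33.1 and 81.2. None of the 10 rises had overlapping groups, which likewise follows largely from how they were chosen. All 10 remained past the threshold with the replicate block. With replicates 2 and 3 only, FRAS1 missed it (limma adjusted p = 0.0601) and the other 9 passed. All 10 missed it without control siRNA replicate 2, where adjusted p was between 0.0504 and 0.0814 and changes were between 1.49 and 2.23 SD.

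**Figure D3:**
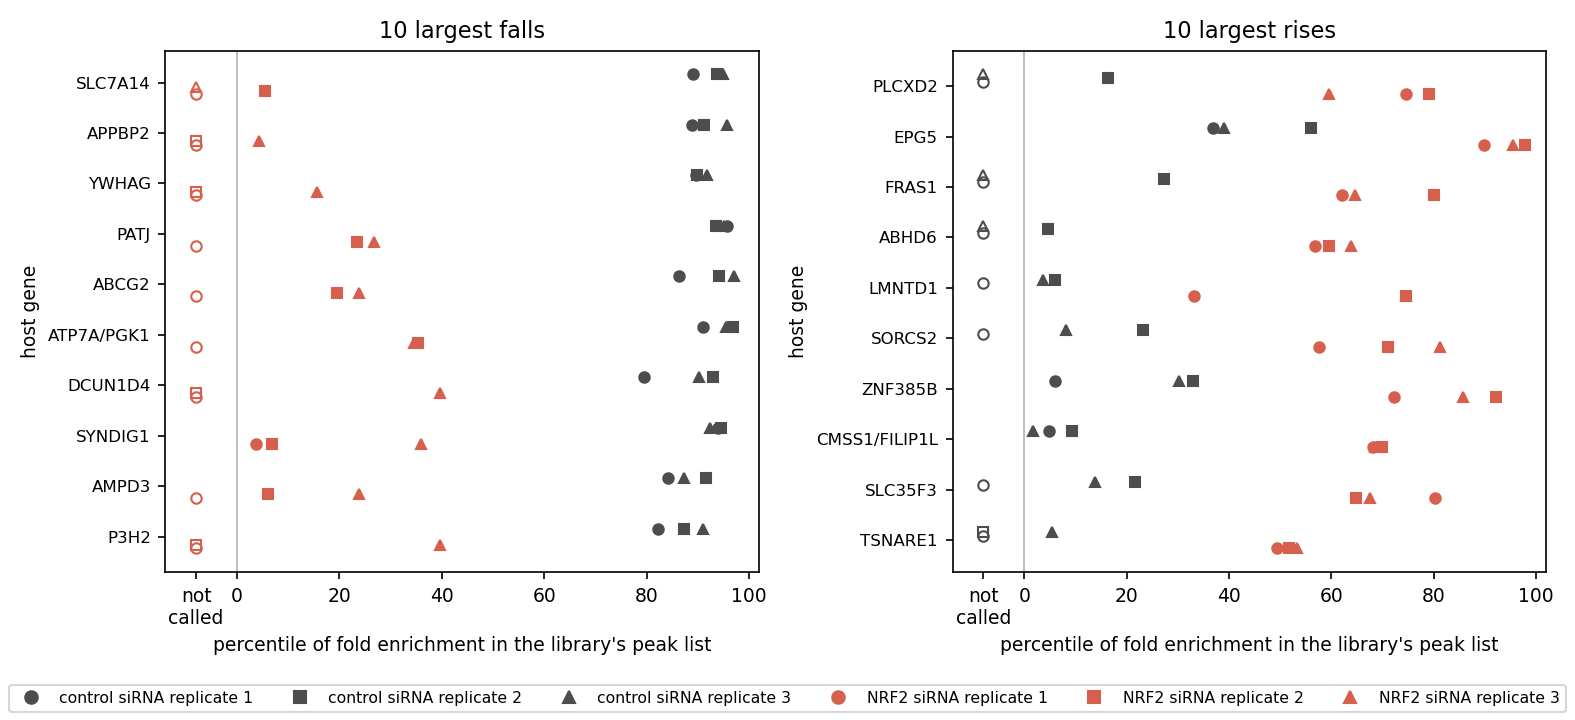
Percentile of fold enrichment in each library's peak list for the 10 intronic enhancers with the largest falls (left) and the 10 with the largest rises (right), named by host gene. Grey symbols are control siRNA, red symbols NRF2 siRNA, circles, squares and triangles are replicates 1, 2 and 3, and open symbols at the left mark libraries without a call. In all 20 regions every control symbol lies on the same side of every NRF2 siRNA symbol.

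TGACTCAGC was much more frequent in the members that fell than in other members. Motifs were counted on both strands in the central 1000 bases of regions at least that long. TGACTCAGC was found in 65 of 177 lower members (36.7%), in 5 of 176 higher members (2.84%) and in 3.85% of 5666 members called in neither direction. Over all merged regions of this length the share was 4.7%. These letters were added after the windows of the 10 named falls had been seen, so those 10 regions carry no independent information. Without them the share among lower members was 33.5%, 56 of 167. Among the 49 lower members called in all 6 libraries it was 32.7%, and among the 69 higher ones 1.45%. Intergenic regions had the motif in 31.8% of those that were lower and in 4.05% of those that were higher, and promoters in 16.7% and 2.33%, so the pattern was not particular to introns. Regions are not replicates and a motif match is not a binding site, so no test was made.

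Read the other way, 288 members held TGACTCAGC in the central window, and 22.6% of them were lower and 1.74% higher with NRF2 siRNA. The named falls with a match in this window are among the 288. The values that follow are therefore not independent of the choice of motif. Of 5731 members without it, 1.95% were lower and 2.98% higher. In replicate pairs 1, 2 and 3 the members with the motif had median score changes of -0.30, -0.26 and -0.25 SD, and those without it 0.25, 0.12 and 0.20 SD. The 0.25 in pair 1 is the value of every region that neither replicate 1 library called, because both lists tie different numbers at the lowest rank. It is therefore not read as a rise of the members without the motif. For members with the motif, the sign of the median was the same with siRNA 28 in pair 1 and siRNA 30 in pairs 2 and 3. All 3 pairs were negative in 44.4% of members with the motif and in 16% of members without it. Most members with the motif were still called in neither direction. The shares of members called in all 6 libraries were alike, 42.4% with the motif and 39.7% without it.

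The ARE core and the AP-1 site were also counted singly, with and without the regions that held TGACTCAGC. The ARE core TGACNNNGC was in 65.5% of lower members, 24.4% of higher members, 32.1% of the members in neither direction and 34.3% of all regions. The AP-1 site TGANTCA was in 70.6% of lower and 71.6% of higher members, against 54.0% of the other members and 42.9% of all regions. Among members without TGACTCAGC in the window, the ARE core was in 45.5% of 112 lower members, 22.2% of 171 higher members and 29.4% of the rest, and the AP-1 site in 53.6%, 70.8% and 52.2%. The density of the AP-1 site was 0.95 matches per kb in lower members, 1.23 in higher members and 0.75 in the rest. Among all members, 12.5% of 2396 ARE core matches overlapped an AP-1 match. The C/EBP site TTGCNNAA, searched because the study also examined CEBPB, was in 46.3% of lower, 47.2% of higher and 46.4% of the other members, and in 42.3% of all regions. The forkhead site TGTTTAC of FOXA factors was in 19.2%, 23.3% and 19.4%, and in 16.5% of all regions.

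**Figure D4:**
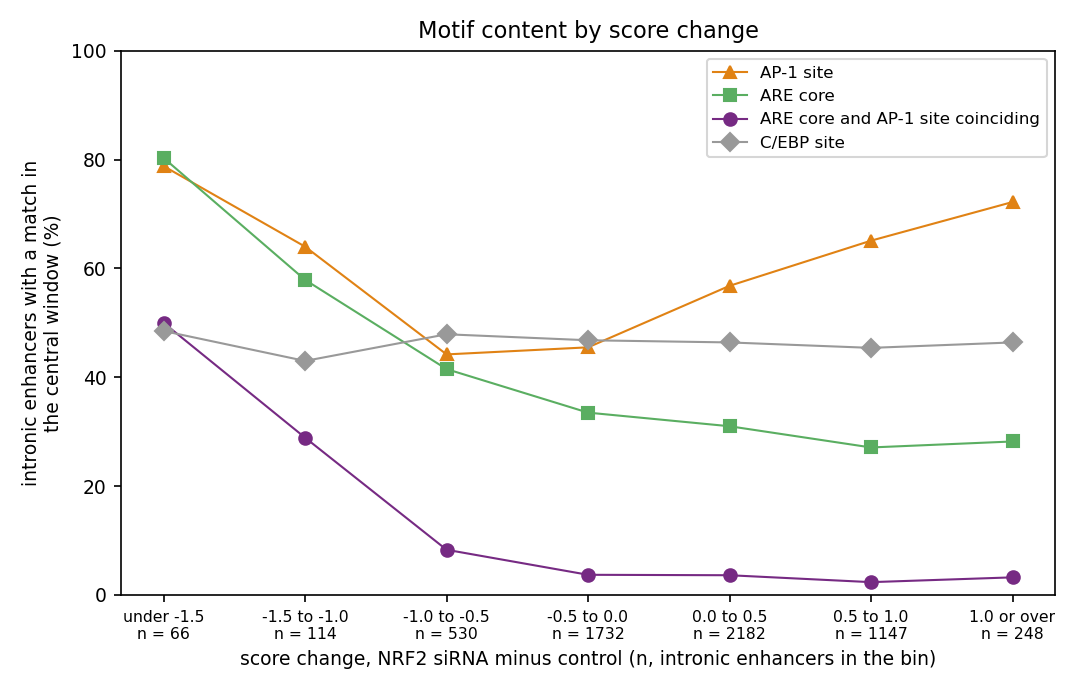
Share of intronic enhancers (%) with at least 1 motif match in the central 1000 bases, by bins of score change (NRF2 siRNA minus control, SD). The coinciding ARE and AP-1 motif fell from 50% in the 66 members that changed by less than -1.5 to 3.23% in the 248 members that rose by 1.0 or more, AP-1 was high at both ends, and C/EBP stayed between 43.0% and 48.5%.

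By score change, the share of members with TGACTCAGC was 50% below -1.5, 28.9% from -1.5 to -1.0, 8.3% from -1.0 to -0.5, and between 2.35% and 3.7% in each bin above. The AP-1 site had its lowest share in the middle, 44.2% from -1.0 to -0.5, and reached 78.8% in the lowest bin and 72.2% in the highest. The bins and the calls come from the same scores, so this is another view of the same data.

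Of 48 genes of the NRF2 circuit and its canonical targets that were found in the annotation, 6 (12.5%) held 11 members, against 16.2% of all protein-coding genes with at least 1. The members lay in GCLC, the catalytic subunit of glutathione synthesis (3), BACH1, a repressor that competes at AREs (3), ABCC1, a glutathione conjugate pump (2), and in SLC7A11, the cystine transporter, ABCC3 and CUL3 (1 each). A region in intron 1 of ABCC1 (chr16:16079053-16086586) was at 95.7, 98.6 and 98.6 with control siRNA and 43.6, 83.5 and 88.7 with NRF2 siRNA. The groups did not overlap, and its score fell with a change of -1.22 ± 0.25 (limma adjusted p = 0.0299). The neighbouring ABCC1 region (chr16:16086816-16094550) was at 94.2, 93.1 and 93.7 with control siRNA and at 84.4, 93.7 and 91.6 with NRF2 siRNA, with overlapping groups (change -0.16 ± 0.20, adjusted p = 0.692). The 3 GCLC regions, named after their values were seen, had changes of -0.73, -0.54 and -0.83 SD with adjusted p between 0.0765 and 0.319. With the replicate block 2 of the 11 passed as lower, and GCLC's region in intron 1 was the second (adjusted p = 0.041).

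Among 13 genes that the study tested by siRNA, HGD, an enzyme of tyrosine breakdown, was the only host, with 1 member in intron 4 (chr3:120378496-120381805). It was at 83.4, 77.4 and 85.4 with control siRNA and 28.8, 45.0 and 42.8 with NRF2 siRNA, without overlap. The score changed by -1.06 ± 0.22 (limma adjusted p = 0.0307). This list was chosen by the study in these cells, so its direction is not independent evidence.

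Growth factor receptor genes were hosts to 33 members in 10 of 21 genes, of which 2 were lower and 0 higher. Their median change was 0.08 SD, against 0.13 over all members and 0.02 over all regions tested. The NRP2 region in intron 7 (chr2:206594114-206600596), in the gene of a semaphorin and VEGF co-receptor, was at 71.9, 78.9 and 76.4 with control siRNA and was not called, at 23.5 and at 32.9 with NRF2 siRNA. Its change was -1.42 ± 0.20 (limma adjusted p = 0.00953). The IL6R region in intron 9 (chr1:154434818-154436465), in the interleukin-6 receptor gene, was at 79.9, 87.3 and 84.4 with control siRNA and was not called, at 39.4 and at 48.8 with NRF2 siRNA (change -1.44 ± 0.23, adjusted p = 0.0134). Neither region had overlapping groups. The strongest member of the list, in TGFBR2, the TGF-beta type II receptor, was between 92.1 and 98.4 in the 6 libraries with a change of 0.00 ± 0.23 (adjusted p = 0.997). EGFR held 7 members, and none passed the test.

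Actin cytoskeleton and junction genes held 87 members in 22 of 29 genes, of which 2 were lower and 2 higher, and 7 and 4 with the replicate block. Lower regions lay in intron 12 of PARD3, a polarity scaffold, and intron 1 of ARHGAP35. The PARD3 region was at 86.3, 94.2 and 95.7 with control siRNA and 37.7, 72.2 and 80.7 with NRF2 siRNA (change -0.93 ± 0.22, limma adjusted p = 0.0461). ARHGAP35 was at 24.8, 46.2 and 45.1 with control siRNA and was called with NRF2 siRNA only in replicate 3, at 4.81 (change -1.08 ± 0.26, adjusted p = 0.0451). The higher regions lay in AFDN, the junction adaptor afadin, and CTNNA1, alpha-catenin. AFDN went from 15.5, 41.9 and 38.2 to 53.8, 75.4 and 82.6 (change 1.08 ± 0.21, adjusted p = 0.0261). CTNNA1 went from 6.45, 16.7 and 43.8 to 19.3, 76.7 and 75.4, with overlapping groups (change 1.03 ± 0.25, adjusted p = 0.0476).

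Epithelial and lineage transcription factor genes held 66 members in 17 of 36 genes, 1 lower and 1 higher, and 3 and 6 with the block. A FOXP1 region in intron 6 (chr3:71188926-71191898) went from 87.2, 85.2 and 77.5 with control siRNA to 0.93, 26.9 and 13.1 with NRF2 siRNA. FOXP1 encodes a forkhead repressor, and the change there was -1.65 ± 0.31 (limma adjusted p = 0.0218). A RUNX1 region in intron 2 was called with control siRNA only in replicate 2, at 4.27, and was at 7.48, 63.3 and 39.5 with NRF2 siRNA (change 1.37 ± 0.33, adjusted p = 0.0473). The strongest member of the list, in TCF7L2, a Wnt pathway factor, was between 95.4 and 99 in the 6 libraries (adjusted p = 0.484). Genes of acetylation readers, writers and erasers held 31 members in 10 of 17 genes, 1 lower and 1 higher, and 2 and 2 with the block. The lower region lay in KAT6B (43.2, 63.9 and 71.5 to not called, 34.8 and 24.8) and the higher in KAT2B (24.3, 25.8 and 42.6 to 62, 69.5 and 67.9), both acetyltransferases. Their changes were -0.99 ± 0.22 and 0.94 ± 0.21 (adjusted p = 0.0373 and 0.0388). The strongest region of this list, in the deacetylase gene HDAC4, had overlapping groups (adjusted p = 0.237).

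Integrin, laminin and matrix receptor genes held 19 members in 11 of 20 genes, and 0 passed the test in either direction, with 1 lower under the block. The strongest, in intron 1 of ITGA6, the laminin-binding integrin alpha-6, was at 93.9, 93.3 and 91.3 with control siRNA and 97.0, 98.9 and 98.7 with NRF2 siRNA. These groups did not overlap, yet the change of 0.70 ± 0.21 missed the threshold (unadjusted p = 0.00786, limma adjusted p = 0.0841). The counts of the 7 lists stand beside the 3.39% lower and 2.01% higher over all regions tested, and nothing is read from them about a list as a whole.

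Of the list regions that fell, those in IL6R, PARD3 and ARHGAP35 also held TGACTCAGC. They are printed because they place the same letters in other host genes, with capitals as above.
IL6R (chr1:154435749-154435789, plus strand): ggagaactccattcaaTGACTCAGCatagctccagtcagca
PARD3 (chr10:34653266-34653306, plus strand): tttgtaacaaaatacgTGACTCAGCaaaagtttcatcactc
ARHGAP35 (chr19:47417221-47417261, plus strand): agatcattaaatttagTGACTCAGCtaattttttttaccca
The lower regions in ABCC1, NRP2, FOXP1 and KAT6B held the ARE core but not TGACTCAGC, and the lower HGD region held neither and had 4 AP-1 matches.

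Intronic enhancers were concentrated in long genes. The 6355 members lay in 3277 of 20176 protein-coding genes (16.2%), of which 1906 held 1 member, 269 held 5 or more and 35 held 10 or more. The median host gene was 124.9 kb long, against 27.2 kb for all protein-coding genes. PARD3 held the most, 22, followed by PDE4D with 18, LRMDA with 17, PTPRM with 16, and PRKCA, RAD51B, RUNX1 and SGCD with 14 each. CDKAL1 and EXT1 held 13, as did NRG1, which the order of symbols placed after them. Most members of RUNX1 and SGCD lay outside the canonical transcript, so their counts depend on the full annotated gene, 1217 kb for RUNX1. Length alone did not set the order. EXT1, of heparan sulfate synthesis, held 4.1 members per 100 kb and PARD3 3.12, while PDE4D held 1.16 and RUNX1 1.15.

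The members of a gene did not all move together. The 22 regions of PARD3 had mean percentiles from 12.2 to 96.5, 15 had negative changes and 1 was lower by the test. The strongest of them, in intron 2, was at 97.8, 98.5 and 97.3 with control siRNA and 92.7, 95.5 and 97.3 with NRF2 siRNA, with overlapping groups (change -0.29 ± 0.20, limma adjusted p = 0.443). PDE4D, a cyclic AMP phosphodiesterase, had the most negative median change of the 10 genes, -0.31 SD, with 15 of 18 members negative and 2 lower. Its members were called 15, 16 and 18 times in control siRNA replicates 1, 2 and 3 and 4, 13 and 18 times in NRF2 siRNA replicates 1, 2 and 3, so the fewest were called in NRF2 siRNA replicate 1, the shortest list. CDKAL1, a tRNA-modifying enzyme, had the opposite balance, with 1 of 13 members negative, a median change of 0.44 SD and 0 past the test. RAD51B, of homologous recombination, had 1 lower and 2 higher members. SGCD, a sarcoglycan, had 2 higher and RUNX1 1 higher, and LRMDA, PTPRM, PRKCA and EXT1 had 0 in either direction. With the replicate block PARD3 had 2 lower, PDE4D 4 lower, RAD51B 2 lower and 2 higher, RUNX1 3 higher and SGCD 3 higher. PRKCA and EXT1 then had 1 lower each and LRMDA 1 higher, while PTPRM and CDKAL1 stayed at 0.

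**Figure D5:**
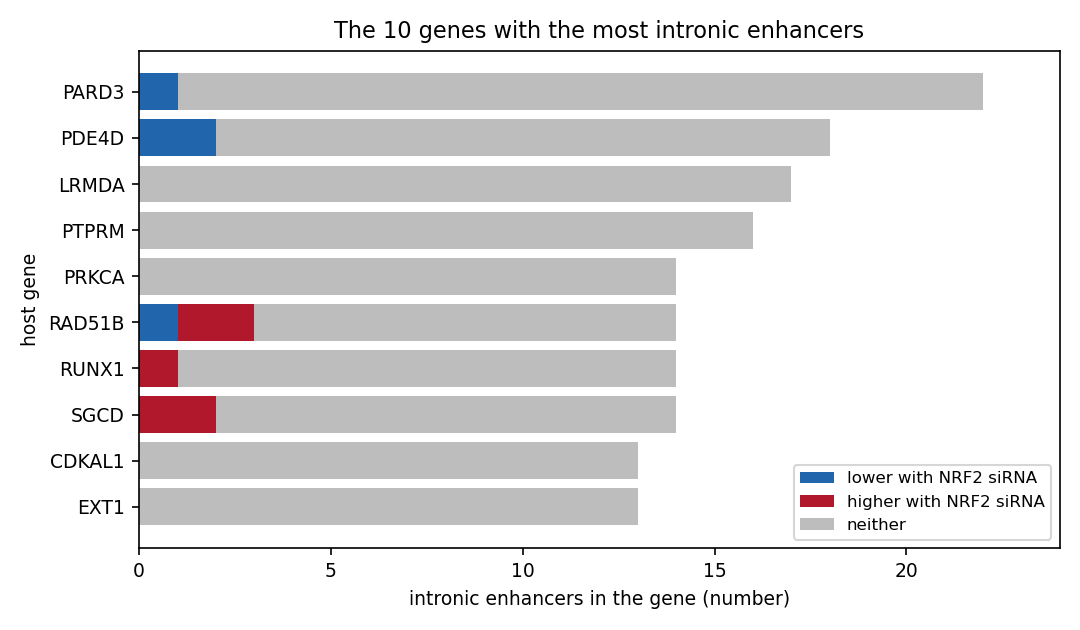
Number of intronic enhancers in each of the 10 host genes with the most. Blue, red and grey parts of a bar count members lower, higher and in neither direction with NRF2 siRNA; PARD3 leads with 22, and 9 of their 155 members in these genes are coloured.

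Some genes held more than 1 called region. The 178 lower members lay in 170 genes and the 178 higher members in 166, with 7 genes holding both. Lower pairs, named here after their values were seen, lay among others in ABCG2, DCUN1D4, DIPK1A, ILRUN, MAP2, MSI2 and PDE4D. The second ABCG2 region (chr4:89110522-89118385) was at 55.2, 70.4 and 55.3 with control siRNA and was called with NRF2 siRNA only in replicate 3, at 6.65 (change -1.57 ± 0.28, limma adjusted p = 0.0189). ILRUN, an inhibitor of interferon responses, held a very strong region in intron 1 (chr6:34623093-34629411) that was at 99.2, 99.7 and 99.8 with control siRNA and 87.8, 90.4 and 94.2 with NRF2 siRNA (change -1.26 ± 0.20, adjusted p = 0.0132). In both of these regions the groups did not overlap.

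The PDE4D pair showed the same separation. One region (chr5:59491695-59493835) went from 74.4, 89.1 and 85.3 with control siRNA to not called, 10.2 and 24.4, and the other (chr5:58604224-58606670), with 2 TGACTCAGC matches, from 71.5, 70.4 and 66.8 to a call only in NRF2 siRNA replicate 3, at 18.8. Changes were -1.91 ± 0.21 and -1.69 ± 0.26 SD (limma adjusted p = 0.00628 and 0.0127). In DST, which encodes the linker protein dystonin, members moved in opposite directions. A region in intron 3 (chr6:56752439-56757509) went from 86.3, 96.7 and 97.8 to 15.5, 70.5 and 73.5, while a region in intron 5 (chr6:56575838-56581792) went from 67.6, 83.3 and 79.0 to 95.7, 95.0 and 95.9. Both had separate groups, with changes of -1.34 ± 0.27 and 0.98 ± 0.21 SD (adjusted p = 0.0264 and 0.0309). RAD51B and KCNMA1, a potassium channel gene, likewise held 1 lower and 2 higher regions.

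Higher pairs lay in CAMK2D, CAMTA1, DCLK1, HIVEP3, IMMP2L, MRPS22, PRICKLE2, RPTOR and SGCD. In DCLK1, a doublecortin-like kinase gene, a region in intron 5 (chr13:36438748-36441549) was called in all 6 libraries, at 22.8, 33.7 and 43.7 with control siRNA and at 58.8, 77.7 and 85.1 with NRF2 siRNA. The second, in intron 4 (chr13:36496731-36504194), was not called, at 12.7 and at 29.9 with control siRNA and at 65.9, 74.5 and 62.4 with NRF2 siRNA. Changes were 1.14 ± 0.20 and 1.5 ± 0.23 SD (limma adjusted p = 0.0184 and 0.0116), and neither region had overlapping groups.

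The 2 NRF2 siRNAs could be compared only through replicate 1. A term for the additional effect in replicate 1 passed the adjusted threshold at 0 of the 6355 members in limma, while 1084 had an unadjusted p under 0.05. With 1 library of siRNA 28, this does not show that both siRNAs acted alike.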

How the data were processed

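Libraries of H3K27ac ChIP DNA from A549 cells were analysed, 3 with control siRNA and 3 with NRF2 siRNA; the input samples were not analysed here. Per the study's methods and the submitters' notes, the authors sequenced single-end reads on a HiSeq2500, aligned them to hg19 with Bowtie2 2.2.6, removed reads of low mapping quality, called peaks per library with MACS2 2.1.0.20151222 and removed blacklisted peaks. The deposited broadPeak lists give for each peak a score, a fold enrichment ratio over background, and −log10 p-value and q-value columns. They hold no read counts, so depth per region is unknown, and no interval for counting error is given.

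Peaks were merged, annotated with GENCODE release 44 lifted to GRCh37, and given in each library the highest fold enrichment of the overlapping peaks. All 24 chromosomes matched the reference used for sequences (GRCh37). Normal scores of within-library ranks were fitted with limma 3.58.1 (lmFit and eBayes, R 4.3.3) over 32673 regions, two-sided, with Benjamini-Hochberg adjustment; the script was tested on simulated data. The study calls the replicates independent experiments. Deviations of same-numbered libraries from their group means were positively correlated (0.40, 0.20 and 0.36 over 32673 regions). Libraries of different numbers were not compared, and both replicate 1 lists were short, so this does not establish pairing by number. The main fit is unpaired, and fits with the replicate block are given where they change a count by over 1.5 times.

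The text names the 10 largest falls and rises among members past the threshold and moving the same way in all pairs, the 5 strongest, the 10 hosts with the most members (ties by symbol), and for each of 7 gene lists its strongest member and any past the threshold. Members and lists were chosen with earlier results of these data known. Alternatives were equal list lengths, a stricter q-value, calls in all 6 libraries, a 200 bp overlap, a length-weighted mean fold, eBayes trend, a 5 kb limit, each library left out and replicates 2 and 3 only; the motif TGACTCAGC, and counts in members without it, were added after the data were seen. No annotation of repeats was used. Some items are not reported here.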

Additional observations from a re-analysis of the deposited data

How the results depend on the processing

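The replicate block, which treats same-numbered libraries as pairs, gave 320 lower and 479 higher intronic enhancers against 178 and 178. It also raised the counts of some lists and host genes, as given above, and all 32 named regions past the threshold stayed past it. Replicates 2 and 3 only gave 293 and 497 of 6355 members, against 1975 and 1719 of the 32673 regions tested. For the settings that follow, counts over all regions are not given, so nothing is read from them about introns. The block with equal list lengths gave 471 higher, and eBayes trend and robust 312 higher. Peaks at a q-value of at most 1e-05 gave 65 lower and 70 higher, and regions called in all 6 libraries 71 and 107, from fewer members: 2421 and 2411, and 3394 with equal list lengths. Leaving out 1 library gave 0 to 218 lower and 0 to 281 higher: 104 and 121 without control siRNA replicate 1, 0 and 0 without replicate 2, 26 and 0 without replicate 3, and 218 and 281, 29 and 0, and 89 and 52 without NRF2 siRNA replicates 1, 2 and 3. Members with an unadjusted p under 0.05 then numbered from 1121 to 1872. The cause was not tested. Of the 32 named regions, 32 missed the threshold without control siRNA replicate 2, 24 without control siRNA replicate 3, 22 without NRF2 siRNA replicate 2, and 5 to 9 without each other library. With equal list lengths 2 of 32 missed it, with and without the block (ARHGAP35 at adjusted p = 0.156 and RUNX1 at 0.102 without it), and with replicates 2 and 3 only 1 (FRAS1, 0.0601). At the stricter q-value 5 of 21 missed it (NRP2, KAT2B, CTNNA1, SLC35F3 and PLCXD2), and among regions called in all 6 libraries 1 of 11 (CTNNA1, 0.0608). None changed direction under any alternative run.

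The share of lower members with the ARE core exceeded that of higher members by 41.1 percentage points in the central window and 28.1 in the whole region, and for TGACTCAGC by 33.9 and 43.8. In the fits on the same merged regions that left any call, TGACTCAGC was in 22.7% to 55.2% of lower and 1.97% to 7.69% of higher members. The named falls, seen before this motif was added, were not removed from these shares. The siRNA difference term had 0 members also with equal list lengths, with 706 at an unadjusted p under 0.05. Without read counts per region, the depth behind a percentile cannot be given, and low list positions are near the caller's threshold. Depth per library was lower in both replicate 1 libraries, by the study's reporting summary.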
